A study of Mus musculus with 48 samples.

Results

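The HMBA course followed how transcript levels of high differentiation-inducible (HD) cells came to differ from those of low differentiation-inducible (LD) cells during treatment with hexamethylene bisacetamide (HMBA). It comprised the 16 of 48 arrays whose titles name HMBA, 4 at each of 6, 12, 24 and 36 h. HD and LD cells were both cloned from T-3-Cl-2-0.fl murine erythroleukemia cells and both had received 3.0 mM HMBA for the same time on every one of these arrays. The other arrays, 16 for each drug, paired the same cells under 1.0% dimethyl sulfoxide (DMSO) or under 15 nM of the histone deacetylase inhibitor trichostatin A (TSA). Each array was a 2-colour cDNA array carrying HD RNA as target and LD RNA as control, per the labels. The 4 arrays of a time are technical replicates of 1 pair of RNA extracts, so their spread measures the assay and not the cultures. Each kind of cell was represented by 1 cell clone, no untreated cells were analysed here, and the level before HMBA is therefore unknown in these data.

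Murine erythroleukemia cells are red cell precursors held at the proerythroblast stage by transformation with a retrovirus, and they are a classical culture model of terminal erythroid differentiation. HMBA is a polar compound that induces them to stop dividing, to make heme and globin and to take on features of later erythroblasts. Commitment to this programme takes many hours of exposure, and lines of the same origin differ in how many of their cells respond. A 2-colour array reports for each spotted cDNA clone how much labelled cDNA of one sample binds relative to the other.

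The measure throughout is log2(HD/LD), which is above 0 where HD cells gave more signal and where 1 unit is a 2-fold difference. It was normalized within each array, and the value of a time is the mean of the mean of arrays 1 and 2 and the mean of arrays 3 and 4, whose labels list the channels in the opposite order. HMBA arrays listed between 19237 and 20283 of 22171 clones, and 18494 clones had values in every condition and were tested. Median intensity per array ranged between 247.7 and 598.1 units for HD cells and between 221.5 and 572.2 units for LD cells. The clones carry library names only. None of the 22171 names was found in the mouse RefSeq gene table, so genes, erythroid gene lists and cell type markers could not be assigned, and the labelled cell type could not be checked against its markers.

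The direction HD over LD was taken from the labels and is not settled. Raw ratios of arrays 1 and 2 correlated negatively with those of arrays 3 and 4 across clones, at -0.64 at 6 h, -0.73 at 12 h, -0.82 at 24 h and -0.61 at 36 h. After normalization these correlations were -0.31, -0.42, -0.08 and -0.26 in the same order. Per the labels HD RNA carried Cy3 throughout, whereas the design text speaks of dye swaps. The lower end of intensities (the 1st percentile) was higher in the HD column on 8 of the 8 HMBA arrays numbered 1 or 2 and on 0 of the 8 numbered 3 or 4. The target column was kept as HD on every array. Counts with the columns of arrays 3 and 4 exchanged ("turned") are given beside each test. They also stand beside the numbers of clones 2-fold different at a time or moved 2-fold. Values without a turned counterpart hold for the kept direction only. At 12 h the means of arrays 1 and 3 and of arrays 2 and 4 had a correlation of -0.03 across clones, against 0.38 to 0.42 at the other times, so ratios of single clones at 12 h repeated poorly between arrays.

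Between 6 and 36 h of HMBA a small set of clones became more abundant in HD than in LD cells. RNA came from whole cultures, so more responding cells and more RNA per cell cannot be told apart. The ratio at 36 h minus that at 6 h passed the test for 14 of 18494 clones (0.0757%), of which 13 (0.0703%) moved towards HD cells and 1 (0.00541%) towards LD cells (limma, Benjamini-Hochberg adjusted p under 0.05). For the 13 clones that rose, the median ratio was 2.15 at 36 h (range 0.63 to 2.77), against 0.33 at 6 h (range -0.80 to 0.60). The median change was 1.78, a 3.43-fold shift, and ranged between 1.43 and 2.68. Since the HMBA course has 1 value per time, the error was taken from the DMSO and TSA values about additive drug and time effects (3 residual degrees of freedom before moderation), and HMBA values were assumed to vary alike. Before adjustment, 568 clones had a p under 0.05. A typical change had an SE of 0.28 and a 95% confidence interval reaching 0.58 to either side. With arrays 3 and 4 turned, 0 clones passed, 586 had an unadjusted p under 0.05, and the median change of the 13 clones was 0.09, with 8 of 13 above 0.

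**Figure D1:**
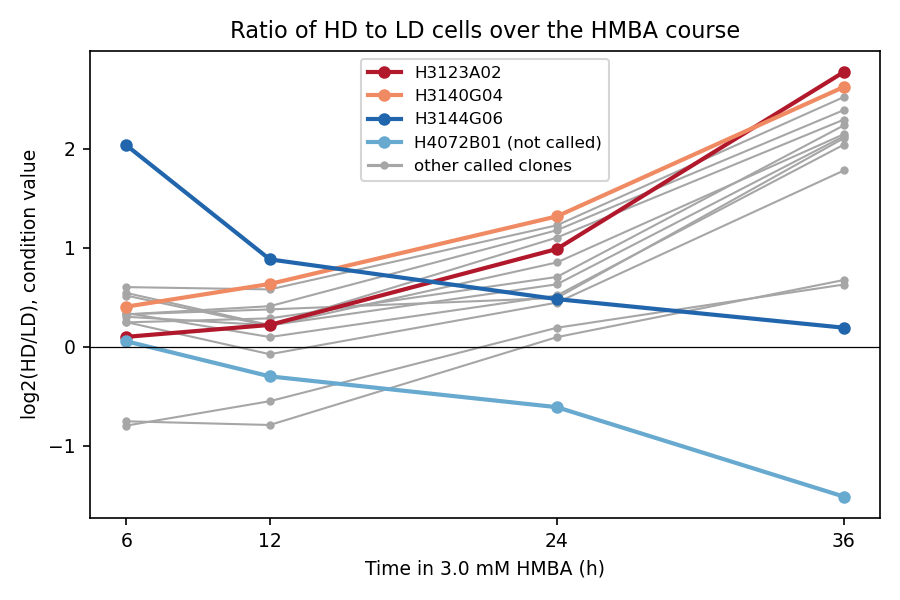
Condition values of log2(HD/LD) at 6, 12, 24 and 36 h of HMBA for the 14 clones that passed the test of 36 h minus 6 h, with H4072B01, which did not pass, added. Grey lines are the 11 called clones not named in the text. In condition value the 13 rising clones change by -0.32 to 0.25 between 6 and 12 h. They reach 0.63 to 2.77 at 36 h, while H3144G06 falls to 0.19 at 36 h.

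In the kept direction the rise of these 13 clones was late. The 12 h value minus the 6 h value had a median of -0.02 and was above 0 in 6 of 13 clones. The arrays differed on this step. Medians on arrays 1 to 4 were 0.82, 0.27, -0.04 and -0.07 at 12 h, against 0.42, 0.49, 0.22 and 0.12 at 6 h. Only on array 1 was the 12 h median the higher. At 24 h the ratio exceeded that at 12 h in 13 of 13 clones, with a median step of 0.65, and in 48.7% of all tested clones. It was higher again at 36 h than at 24 h in 13 of 13, with a median step of 1.31, by at least 2-fold in 11 of them, and in 53.2% of all tested clones. The 12 and 24 h values were not used to select the clones, although the last step contains the selected 36 h value. The number of the 13 clones that were at least 2-fold higher in HD cells, with the same sign on every array, was 0 at 6 h, 0 at 12 h, 4 at 24 h and 11 at 36 h. The remaining 2 clones crossed 0. Their ratios were 0.63 and 0.67 at 36 h, against -0.80 and -0.76 at 6 h.

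The late excess was seen on each of the 4 arrays, whose mean had chosen the 13 clones. Over the 13 clones, the median ratio at 36 h was 2.25 on array 1 (12 clones, as H3123A02 had no value there), 2.46 on array 2, 1.92 on array 3 and 1.73 on array 4, and the lowest single value was 0.56. At 6 h the medians on the same array numbers were 0.42, 0.49, 0.22 and 0.12. For 13 of 13 clones the arrays at 36 h did not overlap those at 6 h, as selection by this contrast favours, and among all tested clones this held for 1.90% in this direction. Arrays 1 and 2 alone gave a median change of 1.87 and arrays 3 and 4 alone 1.69. Both pairs entered the choice of these clones, so their likeness is no independent repeat. Over all tested clones the changes on the 2 pairs had a correlation of 0.09.

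H3123A02 had the largest called change. Its log2(HD/LD) at 6 h was 0.70, 0.87, -0.82 and -0.35 on arrays 1 to 4, and at 12 h it was 0.82, 1.15, -0.18 and -0.91. At 24 h it was 1.68, 1.72, 0.26 and 0.28, and at 36 h it was 3.85, 1.66 and 1.73 on arrays 2 to 4, with no value on array 1. Arrays 3 and 4 lay below arrays 1 and 2 at every time, and all 36 h arrays lay above all 6 h arrays. The 4 condition values were 0.10, 0.22, 0.99 and 2.77 at 6, 12, 24 and 36 h. The change was 2.68 (SE 0.30, 95% interval 2.06 to 3.29, adjusted p = 1.933e-05 in limma), a 6.39-fold shift of the ratio in the kept direction, with 3.07 on arrays 1 and 2 and 2.28 on arrays 3 and 4. With arrays 3 and 4 turned, the change was 0.40 (SE 0.37, adjusted p = 1.00 in limma).

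H3140G04 had the next largest called change, of nearly the same size on both array pairs. Its ratio at 6 h was 0.71, 0.49, 0.04 and 0.37 on arrays 1 to 4, and at 12 h it was 0.92, 0.35, 1.28 and -0.02. At 24 h it was 1.36, 1.40, 1.13 and 1.37, and at 36 h it was 2.62, 3.02, 2.65 and 2.20. The 24 h arrays lay above all 6 h arrays, and the 36 h arrays lay above all 24 h arrays. The change between 6 and 36 h was 2.22 (SE 0.31, interval 1.59 to 2.86, adjusted p = 0.000793 in limma), with 2.22 on arrays 1 and 2 and 2.22 on arrays 3 and 4. In the kept direction HD cells had 6.16 times the LD signal at 36 h and 1.32 times at 6 h. Turned arrays gave a change of -0.00079 (SE 0.24).

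**Figure D2:**
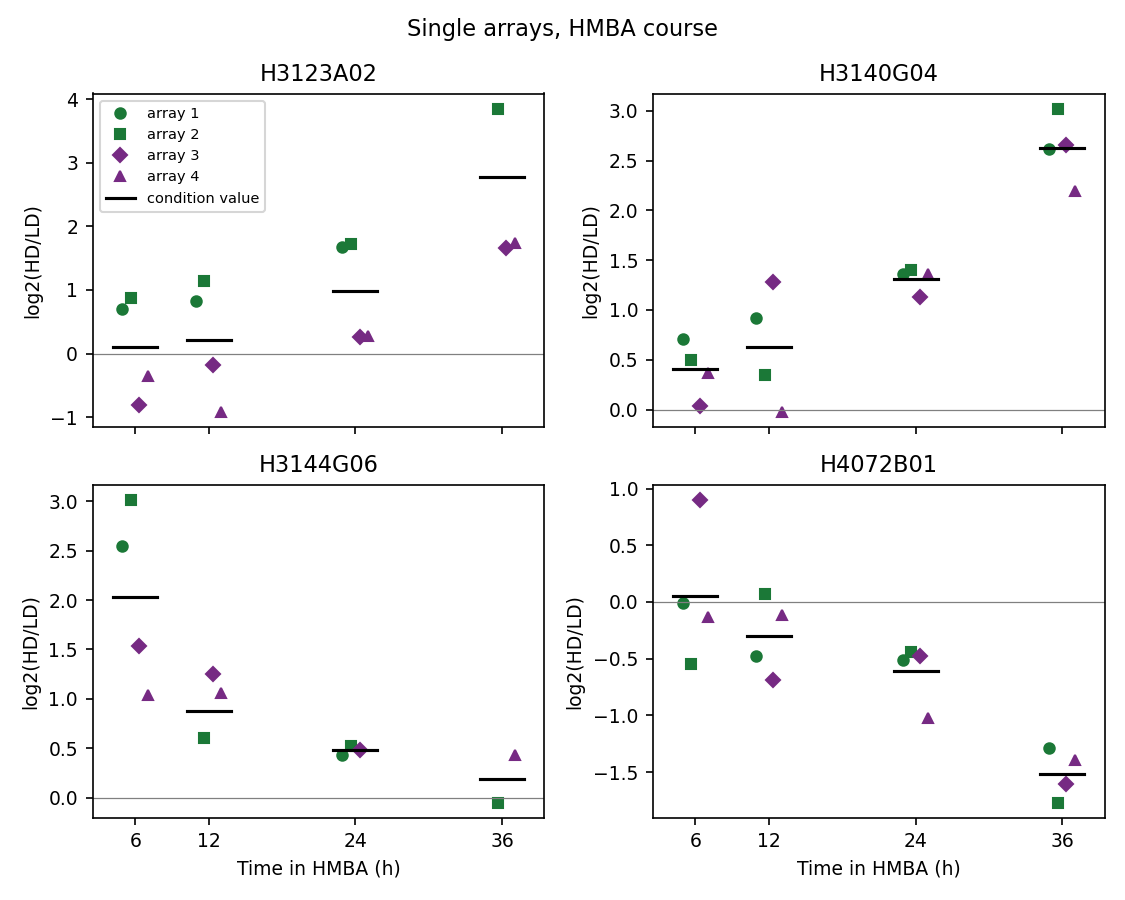
log2(HD/LD) of the 4 named clones on each HMBA array against time, with arrays 1 and 2 in green, arrays 3 and 4 in purple and the condition value as a black bar. The 36 h arrays of H3123A02 and H3140G04 lie above all their 6 h arrays, and those of H3144G06 and H4072B01 lie below them.

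H3144G06 was the only clone called in the other direction. Its ratio at 6 h was 2.55, 3.01, 1.54 and 1.03 on arrays 1 to 4, and at 12 h it was 0.61, 1.25 and 1.06 on arrays 2 to 4. At 24 h it was 0.43, 0.52 and 0.48 on arrays 1 to 3, and at 36 h it was -0.05 on array 2 and 0.43 on array 4. The 36 h value rests on these 2 arrays. The change was -1.84 (SE 0.29, interval -2.44 to -1.25, adjusted p = 0.002736 in limma), at -2.83 on arrays 1 and 2 and -0.85 on arrays 3 and 4. This clone lay at the lower end of intensities. Its LD intensity stood between the 0.211 and 10.9 percentiles of its arrays and its HD intensity between the 0.627 and 38.8 percentiles. Raw log2 ratios at 6 h were 3.12 and 5.22 on arrays 1 and 2 but -0.68 and 0.14 on arrays 3 and 4, so the normalized values depend strongly on the loess step, and no fold is read from them. It was called under 7 of the 14 alternative settings that could test it. A fit of technical arrays as if independent, with their number as a replicate block, gave -1.77 (adjusted p = 0.1221 in limma). Turned arrays gave -0.99 (SE 0.46).

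H4072B01 was the next in that direction by size of change, among clones whose 36 h and 6 h arrays did not overlap, but it did not pass the test of 36 h minus 6 h. Its ratio at 6 h was -0.01, -0.54, 0.90 and -0.13 on arrays 1 to 4, and at 12 h it was -0.48, 0.07, -0.69 and -0.11. At 24 h it was -0.51, -0.44, -0.47 and -1.02, and at 36 h it was -1.29, -1.77, -1.61 and -1.39. The 36 h arrays lay below those of every earlier time. The change was -1.57 (SE 0.35, interval -2.29 to -0.85, adjusted p = 0.1189 in limma). Its straight-line trend over the course, -1.48 over 30 h, did pass (adjusted p = 0.004628 in limma), and in the kept direction LD cells had 2.86 times the HD signal at 36 h. The replicate block called it (adjusted p = 0.0004464 in limma), but that p-value measures the spread of technical arrays and not of conditions or cultures. Turned arrays gave 0.32 (SE 0.21).

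The levels in each channel give the values of either line behind these ratio changes. The 13 clones were chosen by the ratio at 36 h minus 6 h, which is the HD change minus the LD change. The gap between the channels at 36 h therefore follows from that choice and is no separate finding. In the kept direction no clone passed the test of either channel, as given below, so the medians are descriptive only. In the 13 rising clones the HD level relative to 6 h had a median of 0.04 at 12 h, 0.42 at 24 h and 2.73 at 36 h on the log2 scale. The LD level in the same clones had medians of -0.041, 0.0045 and 0.68 at the same times. HD levels were thus 6.64-fold and LD levels 1.60-fold above those at 6 h by 36 h, and the LD change was above 0 in 12 of 13 clones. With arrays 3 and 4 turned, the median change of the 13 clones was 1.66 in HD cells and 1.53 in LD cells, above 0 in 13 of 13 in both. Over all tested clones the median change by 36 h in the kept direction was -0.05 in HD cells and -0.06 in LD cells (log2).

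**Figure D3:**
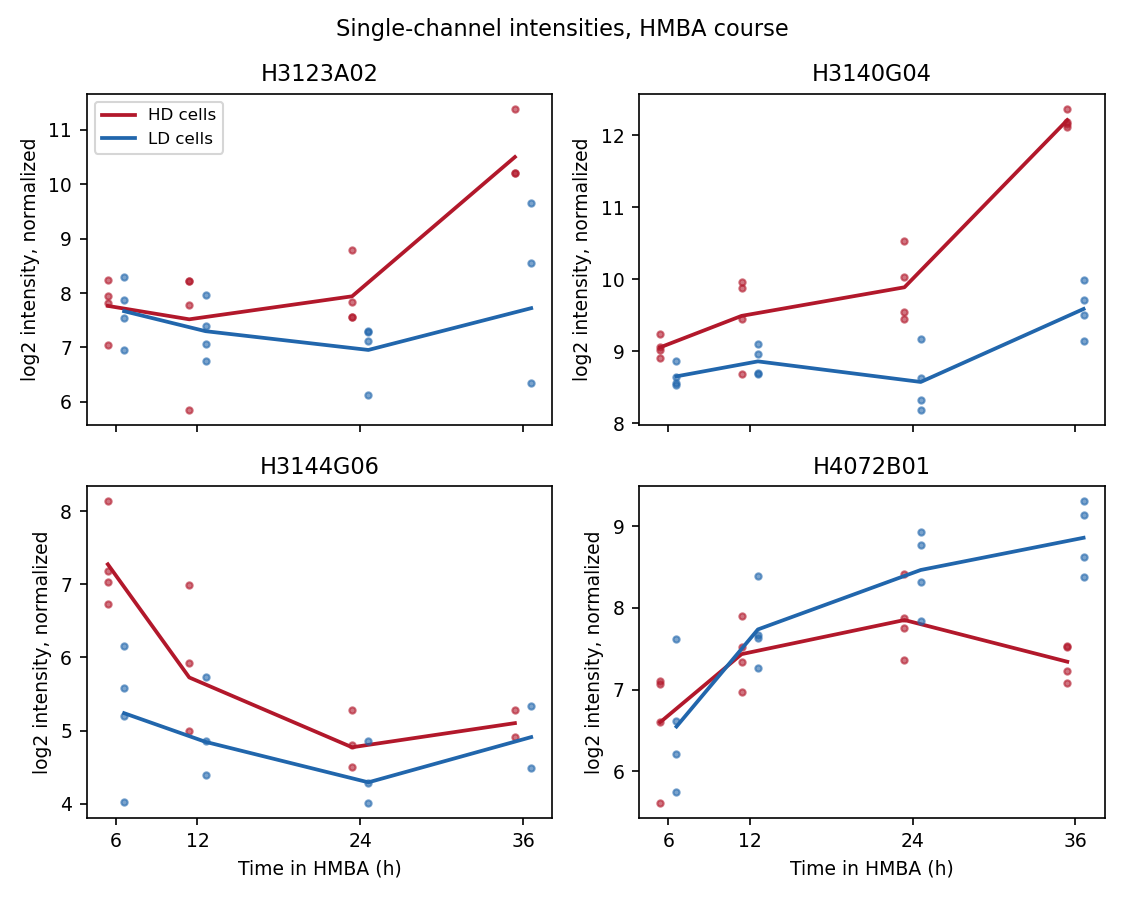
Normalized log2 intensity of the 4 named clones in HD cells (red) and LD cells (blue) against hours of HMBA. Points are single arrays and lines join the condition values. In H3140G04 the 36 h value minus the 6 h value is 3.16 in HD cells and 0.94 in LD cells, whereas in H4072B01 it is 0.74 in HD cells and 2.31 in LD cells.

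For the named clones the SE of the change was between 0.37 and 0.68 in single channels and between 0.29 and 0.35 in ratios. In limma, 0 clones passed for the change in HD cells and 0 for the change in LD cells, with 1802 and 1616 at an unadjusted p under 0.05. Turning arrays 3 and 4 gave 1 clone for HD cells and 0 for LD cells. When technical arrays were fitted as if independent, with their number as a replicate block, limma called 1226 clones for the change in HD cells and 718 for that in LD cells. H3123A02 had a change of 2.73 in HD cells (SE 0.52, adjusted p = 0.266 in limma) and of 0.06 in LD cells (SE 0.46). H3140G04 had 3.16 in HD cells (SE 0.47, adjusted p = 0.112 in limma) and 0.94 in LD cells (SE 0.37). H3144G06 had a change of -2.17 in HD cells (SE 0.51) and of -0.33 in LD cells (SE 0.41), and H4072B01 had 0.74 in HD cells (SE 0.68) and 2.31 in LD cells (SE 0.46), none past the threshold. Turned, H3144G06 had -1.74 in HD cells and -0.75 in LD cells, and H4072B01 had 1.68 in HD cells and 1.37 in LD cells.

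A straight line fitted to the 4 HMBA values of each clone, which takes its error from the HMBA course itself, called 25 clones (0.135%). Of these 23 (0.124%) rose and 2 (0.0108%) fell with time, and 862 had an unadjusted p under 0.05. All 13 clones that rose in the comparison of 36 h with 6 h were among the 23, of which they made up 56.5%. The 2 falling clones were H3144G06 and H4072B01. Turned arrays gave 5 clones by the line, 3 rising and 2 falling. Both fits use the same 6 and 36 h values and are not independent of each other.

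The course under the other inducers used other RNA extracts of the same HD and LD cells. In the 13 rising clones the ratio at 36 h minus 6 h had a median of 1.78 under HMBA, 0.97 under DMSO (range 0.59 to 1.36) and 1.82 under TSA (range 0.58 to 2.29). It was above 0 in 13 of 13 clones under DMSO, where 50% of all tested clones were, and in 13 of 13 under TSA, where 49.2% were. It reached 2-fold in 6 of 13 clones under DMSO (0.0703% of all tested) and in 11 of 13 under TSA (1.51%). With arrays 3 and 4 turned, the median change of the 13 clones was 0.22 under DMSO, above 0 in 10, and -0.42 under TSA, above 0 in 0. DMSO and TSA values supplied the error of the test that chose these clones, and the same pair of cell clones was used throughout.

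**Figure D4:**
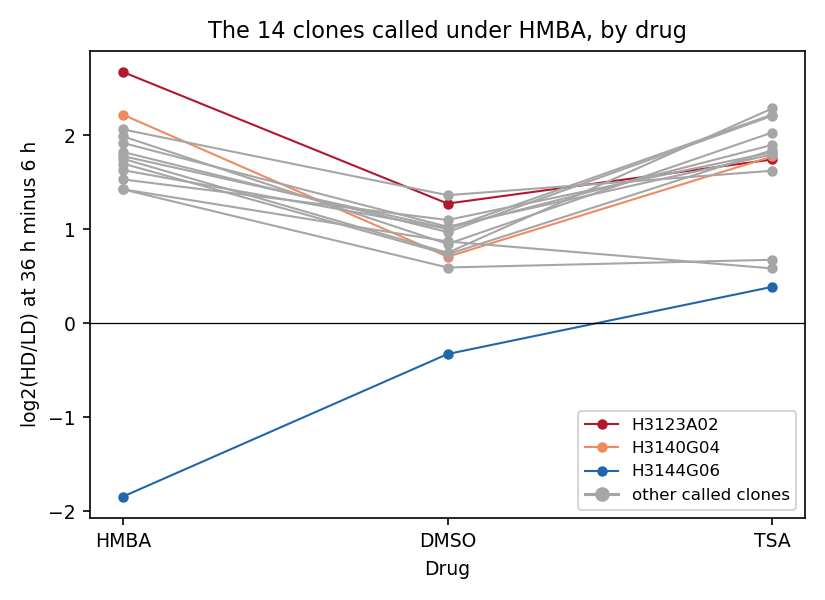
Ratio at 36 h minus 6 h for the 14 clones called under HMBA, under HMBA, DMSO and TSA. Lines join the values of a clone. The 13 rising clones are above 0 under each drug, between 0.59 and 1.36 under DMSO and between 0.58 and 2.29 under TSA, while H3144G06 is at -0.33 under DMSO and 0.39 under TSA.

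The test of the difference itself, HMBA against the shared change under DMSO and TSA, called 0 clones in limma, with 465 at an unadjusted p under 0.05. Turned arrays also called 0, with 747 at an unadjusted p under 0.05. For the 13 rising clones this difference had a median of 0.51 and lay between 0.02 and 1.17. For H3123A02 it was 1.17 (95% interval 0.42 to 1.92, adjusted p = 1.00 in limma), the change being 1.28 under DMSO and 1.74 under TSA. For H3140G04 it was 0.98 with an interval from 0.20 to 1.76, with 0.71 under DMSO and 1.78 under TSA. H3144G06 had a difference of -1.88 (interval -2.60 to -1.15, adjusted p = 0.2439 in limma), with -0.33 under DMSO and 0.39 under TSA. H4072B01 had a change of -0.66 under DMSO and of 1.02 under TSA, with TSA opposite in sign to HMBA, and a difference of -1.75 (interval -2.64 to -0.87, adjusted p = 0.7904 in limma). An effect particular to HMBA was therefore not detected for any tested clone after adjustment, which does not show that the drugs act alike.

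Next, without a test, clones were counted whose ratio reached 2-fold at a given time and had 1 sign on all of its arrays. At 6 h there were 3 such clones higher in HD cells (0.0162%) and 20 lower (0.108%), and at 12 h there were 0 higher and 6 lower (0.0324%). At 24 h there were 7 higher (0.0379%) and 14 lower (0.0757%), and at 36 h 26 higher (0.141%) and 28 lower (0.151%). Numbers in both directions were thus close at 36 h, whereas lower clones prevailed at 6 h. Turning arrays 3 and 4 gave 15 higher and 195 lower at 6 h, 61 and 164 at 12 h, 2 and 23 at 24 h, and 6 and 94 at 36 h, so that lower clones then prevailed at every time.

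**Figure D5:**
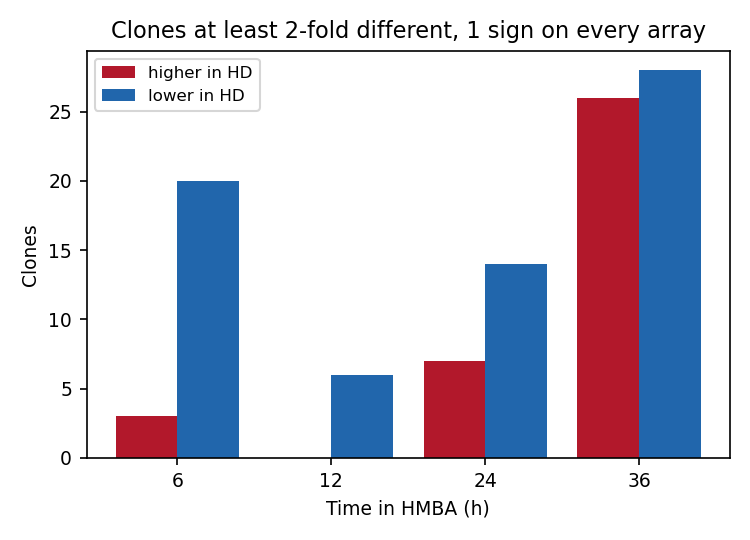
Number of clones at least 2-fold higher (red) or lower (blue) in HD than in LD cells at each HMBA time, with the same sign on every array. Higher clones number 3, 0, 7 and 26 and lower clones 20, 6, 14 and 28 at 6, 12, 24 and 36 h.

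The higher and lower clones at 36 h differed in their earlier counts in the kept direction, as did all tested clones at 6 and 12 h. Of the 26 higher clones, 0 had been 2-fold higher at 6 h, 0 at 12 h and 6 at 24 h. Among all tested clones only 3 (0.0162%), 0 and 7 (0.0379%) were so at these times. A ratio above 0 at all 4 times was found in 23 of the 26, whose sign at 36 h follows from the choice. Of all tested clones, 51.1% were above 0 at 6 h, 48.3% at 12 h, 46.5% at 24 h and 48.5% at 36 h. The share of all tested clones above 0 at all 4 times is not given here. Of the 28 lower clones, 14 had been 2-fold lower at 6 h already, 5 at 12 h and 14 at 24 h, and 4 were so at all 4 times. Among all tested clones 20 (0.108%), 6 (0.0324%) and 14 (0.0757%) were lower at 6, 12 and 24 h. Of the 26 higher clones, 12 met the same criterion under DMSO at 36 h (0.0703% of all tested clones) and 23 under TSA at 36 h (0.692%). Of the 28 lower clones, 20 met it under DMSO at 36 h (0.114%) and 12 under TSA (0.130%). The median ratio of the 26 clones was 1.79 under HMBA, 0.94 under DMSO and 1.97 under TSA, and that of the 28 clones was -1.73, -1.21 and -0.96 in the same order.

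A broader list held the clones that moved at least 2-fold between 6 and 36 h, with non-overlapping arrays and 1 direction on both array pairs. It comprised 62 clones (0.335%), 46 that increased (0.249%) and 16 that decreased (0.0865%), and it carries no test. Without the size criterion, the arrays at 36 h did not overlap those at 6 h in 595 clones (3.22%). The 46 clones had median ratios of -0.35, -0.02, 0.37 and 0.78 at 6, 12, 24 and 36 h, and the 16 clones had 0.55, -0.16, -0.47 and -0.55. Within single clones of the 46, the median step was 0.11 between 6 and 12 h, 0.39 between 12 and 24 h and 0.90 between 24 and 36 h, and in the 16 it was -0.64, -0.31 and -0.26. The first and last steps contain the values that chose these clones.

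Steps and drugs that did not enter this selection gave further values. At 24 h the ratio exceeded that at 12 h in 36 of the 46 clones (48.7% of all tested) and lay below it in 13 of the 16 (51.3%). The ratio at 36 h minus 6 h was above 0 in 40 of the 46 under DMSO (median 0.57, against 50% of all tested above 0) and in 42 under TSA (median 1.63, against 49.2%). In the 16 it was below 0 in 13 under DMSO (median -0.35, against 50% of all) and in 10 under TSA (median -0.25, against 50.8%). The channel changes between 6 and 36 h, in contrast, come from the arrays that chose the clones. The gap between the channels therefore follows from the selection. Among the 46, the HD level had a median change of 1.53 and the LD level of 0.24. Among the 16, the HD level had a median change of -0.71 and the LD level of 0.39, and the LD change was above 0 in 13, as in 45.8% of all tested clones. In turned arrays 34 clones met the criteria, 24 of them increasing and 10 decreasing.

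By sign and by correlation, the array pairs repeated each other poorly over the whole table. Of 210 clones that increased at least 2-fold on arrays 1 and 2, 116 (55.2%) increased on arrays 3 and 4, against 49.1% of all. At least 2-fold there were 25 of the 210, against 136 of all 18494. Of 136 picked on arrays 3 and 4, 83 (61.0%) increased on arrays 1 and 2, against 51.6% of all. At least 2-fold there were 25 of the 136, against 210 of all 18494. Of 123 clones that decreased at least 2-fold on either pair, 66 (53.7%) decreased on the other, against 50.9% and 48.4% of all. On the other pair 9 of the 123 decreased at least 2-fold in both cases, against 123 of all 18494. Over all 18494 clones the changes on the pairs had a correlation of 0.09. The 13 rising clones, chosen for their size, had changes between 1.19 and 3.07 on arrays 1 and 2 and between 1.44 and 2.33 on arrays 3 and 4.

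Averaged over the course, 139 clones (0.752%) differed between the lines, with 79 higher (0.427%) and 60 lower (0.324%) in HD cells (limma on the 4 HMBA values), and 2587 had an unadjusted p under 0.05. The 79 higher clones had a median ratio of 0.43, 1.34-fold, with medians of 0.44, 0.47, 0.44 and 0.39 at 6, 12, 24 and 36 h. The 60 lower clones had a median of -0.58 and reached -2.24, with -0.67, -0.61, -0.48 and -0.72 at the same times. The last step went down in 50 of these 60 clones, where 46.8% of all tested clones did so. Both values of this step entered the mean that chose the clones. Their level at 36 h was above that at 6 h by a median of 0.34 in HD cells and 0.56 in LD cells. Over all tested clones these medians were -0.048 and -0.055. Only 1 of the 13 late-rising clones was among the 79. Median centring in place of loess called 1 clone and omission of the 6 h values called 1. Turning arrays 3 and 4 called 5670 clones, 2560 higher and 3110 lower.

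The 13 rising clones came from 9 plates, 10 lay in the second of the 2 parts in which each array was deposited and 3 in the first, where 8316 and 10178 of the tested clones lay. A run of 5 clones stood in consecutive wells, across the end of one plate and the start of the next, and included H3123A02. The part played by position in these values was not tested. Without gene names, clones of the same transcript could not be recognized, so the 13 clones may not be 13 independent units. Their median intensity stood at the 57.3 percentile of the tested clones. At the edge of the call, the last clone inside had an adjusted p of 0.04116 with a change of 1.63, and the next 3 outside had 0.06112 with changes of -1.35, 1.49 and 1.33.

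The calls also rested on single arrays and conditions. Without array 3 of every condition 1 of the 13 clones was called, without array 1 there were 5 and without array 2 there were 8, while every tested clone of the 13 kept a change above 0, with medians between 1.74 and 1.89. Without DMSO or TSA at 12 h, 1 of the 13 passed, and without DMSO or TSA at 36 h, 47 clones passed in all. Median centring in place of loess left 0 clones called, although the 13 clones then had a median change of 1.79. With single arrays as units and their number as a replicate block, limma called 75 clones, 55 rising and 20 falling. That fit takes technical arrays as independent, so its p-values measure the spread of the assay.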

How the data were processed

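The authors deposited each array as 2 parts that list, for every cDNA clone, an intensity of the target and of the control RNA, per the file headers. These intensities came without a background column and all were above 0, so no background was subtracted. A deposited table of the authors' log2 ratios (22656 rows, 496 empty) had correlations between 0.991 and 0.999 with the ratios computed here, slopes between 0.976 and 0.998 and column medians between -0.021 and 0.017, which puts it on a log2 scale as target over control. The sources used here do not give how it was centred.

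Ratios were normalized by loess (span 0.3) in every file part, with limma 3.58.1 under R 4.3.3. Channels were rebuilt after quantile normalization of mean intensities between arrays. The 12 condition values were fitted with a coefficient for each HMBA time and additive drug and time terms for DMSO and TSA. The line and the mean over the course used the 4 HMBA values alone, with 2 and 3 residual degrees of freedom. Tests were two-sided, with Benjamini-Hochberg adjustment over 18494 clones. The fits of 36 h minus 6 h and of the line were tested on simulated data. The simulated condition values had independent errors and no array or dye structure, so they say nothing on such effects in the p-values. With 1 extract pair per condition, p-values measure the spread between conditions and not between cultures. The number of arrays limits the precision.

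Same-numbered arrays of different HMBA times deviated together from their time means, with correlations between 0.268 and 0.563 across clones (24 pairs, median 0.414). These pairs are taken from the data, and a replicate block on single arrays is given as an alternative. The other alternatives were median centring, an offset of 50, omission of the dimmest 25% of clones, clones complete under HMBA alone, the authors' log2 table, turned arrays, loess within arrays alone, straight lines per drug, and omission of single arrays or conditions.

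The clones named are the 2 with the largest change in each direction, called ones first, as no table pairs clones with genes. Gene lists and markers were not used for the same reason. The members, lists and tests were chosen with earlier results of these data known.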

Additional observations from a re-analysis of the deposited data

Results flagged for a closer look

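In 2 of 12 groups of 4 arrays of the named clones, 1 array stood apart from the others. Chance alone marks about 1 in 20 such groups if the 4 values are independent. Here arrays were more alike within pairs than between them, so this rate may not hold. Clone H3140G04 at 24 h of HMBA had 1.13 on array 3, against 1.36 to 1.40 on the other arrays. H4072B01 at 24 h had -1.02 on array 4, against -0.51 to -0.44 on the others. The change between 6 and 36 h of HMBA differed between HD and LD cells in 14 clones, by the test of the ratio described above. Among the named clones, the HD change minus the LD change was 2.68 for H3123A02, 2.22 for H3140G04 and -1.84 for H3144G06.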

How the results depend on the processing

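The cause of the following shifts was not tested unless the setting itself gives it. For 36 h minus 6 h (14 clones), median centring called 0, the offset 26, omission of dim clones 24, turned arrays 0 and the replicate block 75. For HMBA against the other drugs (0), turned arrays called 0. For the line (25) these settings called 0, 110, 115, 5 and 40, and for the mean over the course (139) they called 1, 681, 562, 5670 and 793, with 263 from the authors' log2 table and 77 when clones complete under HMBA alone were tested. For the change in HD cells (0), turned arrays called 1, loess within arrays alone 6 and the replicate block 1226; for LD cells (0), omission of dim clones called 9 and the replicate block 718. Turned arrays gave 560 in place of 104 clone and time pairs at least 2-fold different and 34 in place of 62 clones moved. They took the change of H3140G04 to -0.00079 (SE 0.24), near 0, that of H4072B01 to 0.32, that of H3123A02 to 0.40 and that of H3144G06 to -0.99. Leaving out 1 array number gave 1 to 17 clones for 36 h minus 6 h, 3 to 22 for the line, 43 to 84 for the mean, 0 to 16 for HD cells, 0 to 8 for LD cells, 0 to 1 for HMBA against the other drugs, 111 to 128 clone and time pairs, and 63 to 90 clones moved. Leaving out 1 condition gave 1 to 47 for 36 h minus 6 h, 0 to 27 for HMBA against the other drugs, 0 to 87 for the line and 1 to 160 for the mean. H3123A02 was called under 16 of 18 alternatives, H3140G04 under 14 of 19 and H4072B01 under 10 of 19. The replicate block, which takes technical arrays as independent, changed no call of H3123A02 or H3140G04. It ended that of H3144G06 (adjusted p = 0.1221 in limma) and made one of H4072B01 (adjusted p = 0.0004464 in limma).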
